A study of Mus musculus with 20 samples.

Results

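The collagen genes are the protein-coding genes whose mouse symbol has the form Col, a number, a and a number, and 42 of the 20636 genes in the deposited table met this rule. The 42 were followed over 15 pancreatic ductal adenocarcinomas, 5 each from KPT, KAT and KPAT mice. All groups carried Rosa26LSL-tdTomato/LSL-tdTomato, a red fluorescent reporter, and Ptf1aCreER, a tamoxifen-dependent recombinase made in acinar cells. KPT mice carried in addition Trp53fl/fl, the gene of p53, KAT mice Cdkn2A-Arf fl/fl, which encodes a p53-stabilising protein, and KPAT mice both floxed pairs. The mice were gavaged with 5 mg tamoxifen on each of 3 days at 8 to 10 weeks of age and kept until morbidity. Floxed alleles are removed only in the acinar cells that express Cre and their descendants, so fibroblasts, vessels and immune cells of each tumour keep Trp53 and Cdkn2a. The KT group, with no floxed suppressor, is not analysed here. Col9a1 and Col19a1 are not analysed here either.

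Collagens are secreted or membrane proteins built from 3 chains wound into a triple helix. Fibrillar collagens (types I, II, III, V, XI, XXIV and XXVII) form the tensile fibres of connective tissue, network collagens form sheets such as the basement membrane (type IV), and FACIT collagens sit on fibril surfaces and interrupt the helix. Type VI forms beaded filaments around cells, type VII anchors epithelium to the tissue beneath, multiplexins (XV and XVIII) lie in basement membrane zones, and transmembrane collagens (XIII, XVII, XXIII and XXV) stay in the cell surface. Pancreatic ductal adenocarcinoma is known for a dense stroma in which fibroblasts lay down much of the collagen.

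Libraries held 14696138 to 26248484 reads assigned to genes. Levels are given in deposited units, which are reads divided by 1 factor per library and lie on a scale close to CPM. A fold change is a difference of log2(reads-scaled level + 1) from limma across all 16648 tested genes, and a gene was called at a Benjamini-Hochberg adjusted p under 0.05. Trp53 was at 24.3 ± 1.77 (SD, n = 5) in KPT and 41.9 ± 9.53 in KPAT, under the 125 ± 20.03 of KAT in every tumour. Cdkn2a ran from 216 to 335 in KPT, from 150 to 690 in KAT and from 268 to 907 in KPAT, and since the labels do not say which exons are floxed, this gene-level value does not check the Cdkn2A-Arf label. The labels number the tumours separately without naming the animals, so p-values measure the spread between these samples. The library names of each group carry a run of numbers of their own, and a batch that followed these cannot be told apart from genotype. The epithelial identity of the tumours was present in every library, with a summed level of 8 epithelial markers between 6977 and 17770, against 19 to 951 for 8 acinar markers. In bulk tumour RNA, fewer cells of a type and less RNA per cell cannot be told apart.

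Collagen genes took up more of the RNA in KAT and KPAT than in KPT tumours. Together the 42 genes held 0.565, 0.731, 0.32, 0.473 and 0.573% of reads in KPT tumours 1 to 5, 1.16, 1.28, 1.01, 1.64 and 1.39% in KAT and 1.19, 2.19, 0.988, 1.29 and 1.71% in KPAT. All KAT and all KPAT tumours lay above the highest KPT tumour, while KAT and KPAT overlapped. Col1a1, Col1a2 and Col3a1 alone made up 40.3% of collagen reads in KPT (23.6 to 47.6%), 51.7% in KAT (47.9 to 54.5%) and 53% in KPAT (45 to 59.4%). The 11 fibrillar genes held 0.287 ± 0.109% (SD, n = 5) of reads in KPT, 0.806 ± 0.148% in KAT and 0.963 ± 0.378% in KPAT. Type IV basement membrane genes were the next largest class, at 0.116 ± 0.0241% in KPT, at 0.173 ± 0.0444% in KAT and at 0.207 ± 0.0494% in KPAT.

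**Figure D1:**
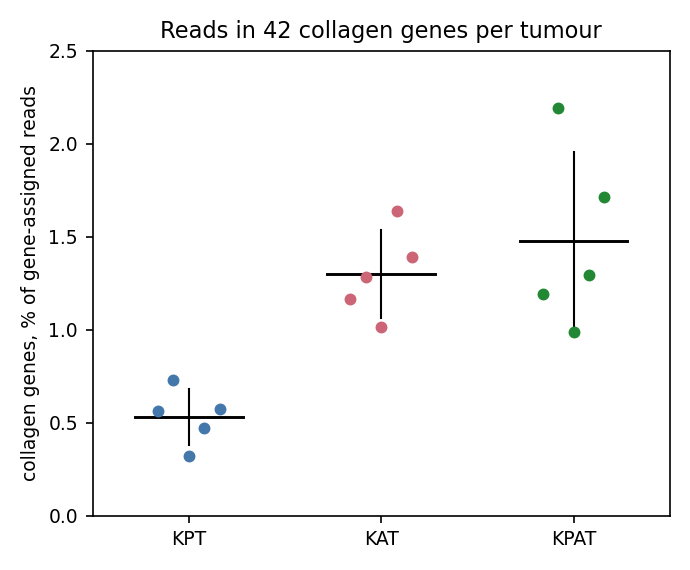
Share of gene-assigned reads in the 42 collagen genes, in percent, for each tumour (points) by group, with the mean (horizontal line) and SD (vertical line) of 5 tumours. The KPT tumours lie between 0.32 and 0.731%, below all 10 KAT and KPAT tumours, which start at 0.988%.

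In KPAT against KPT, 19 of the 40 tested collagen genes were higher and 0 lower by limma, where 9.13% of all tested genes were higher and 7.4% lower (16.5% in either direction). At an unadjusted p under 0.05 there were 25 of 40, against 32.2% of all tested genes. The median log2 fold change of the 40 was 1.19, against 0.016 over all genes tested, and 35 of the 40 values were above 0. For 10 collagen genes every KPAT tumour lay above every KPT tumour, a separation found for 5.03% of all tested genes, and none lay wholly below, as 4.93% of all did. The only lower collagen gene at an unadjusted p under 0.05 was Col4a4, which DESeq2 called lower and edgeR did not. Limma also called it lower without KPT 4 and without KPAT 4. In KAT against KPT, 17 of 40 were higher and 0 lower by limma, where 15.6% of all genes were higher and 13.3% lower (28.9% in either direction), and 20 of 40 passed an unadjusted p of 0.05, against 41.2% of all genes. Here the median was 1.08 against 0.026 over all genes, 37 of 40 values were above 0, and 11 collagen genes separated the groups upward (9.24% of all genes) and 0 downward (8.38%). Col4a4 was again the 1 lower gene at an unadjusted p under 0.05, and both edgeR and DESeq2 called it lower. Limma did so with quantile normalization (-1.65, adjusted p = 0.0262), with array weights and without KPT 4. The KPAT and KAT comparisons share their KPT tumours, so the values are set side by side and not counted as separate support. Col2a1 and Col22a1 lay under the minimum level and were not tested, with 0 to 1.64 and 0 to 0.652 over the 15 tumours.

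The libraries with most reads in genes that overlap ribosomal RNA were KPT 3 (0.101% of reads), KAT 2 (0.143%) and KPAT 5 (0.0531%). Without these 3, 9 collagen genes were called in KPAT against KPT and 14 in KAT against KPT, with medians of 0.92 and 1.02, and the calls over all tested genes went down as well, to 10.4% and 24.5%. The calls lost were those of Col4a1, Col4a2, Col5a1, Col5a3, Col6a1, Col11a1, Col11a2, Col23a1, Col24a1 and Col25a1 in KPAT and of Col5a1, Col6a1, Col6a2 and Col23a1 in KAT, where Col6a6 was gained. Leaving out any single library gave 13 to 20 calls for KPAT against KPT, the lowest without KPAT 2, and 12 to 17 for KAT against KPT, the lowest without KAT 4 or KAT 5.

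Of the genes higher in both KAT and KPAT, 1 was taken from each of 4 classes to show the sequence before the start, where RefSeq (GRCm38.p6) has an entry and no annotated exon lies in the 250 bases. Capitals mark, on either strand, the CCAAT motif bound by NF-Y, the TATAAA motif of the TATA box and the GGGCGG motif bound by Sp1.
Col3a1 (chr1:45311288-45311537, plus strand): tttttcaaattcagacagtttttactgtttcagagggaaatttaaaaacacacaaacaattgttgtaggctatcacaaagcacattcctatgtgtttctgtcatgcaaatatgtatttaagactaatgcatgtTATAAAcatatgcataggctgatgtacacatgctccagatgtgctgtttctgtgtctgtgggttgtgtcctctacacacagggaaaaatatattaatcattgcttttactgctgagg
Col6a3 (chr1:90843972-90844221, minus strand): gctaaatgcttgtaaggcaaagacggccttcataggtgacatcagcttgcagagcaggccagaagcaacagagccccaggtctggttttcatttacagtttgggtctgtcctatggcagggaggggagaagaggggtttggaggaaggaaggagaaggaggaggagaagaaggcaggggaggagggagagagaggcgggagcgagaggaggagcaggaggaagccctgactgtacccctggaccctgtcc
Col15a1 (chr4:47207762-47208011, plus strand): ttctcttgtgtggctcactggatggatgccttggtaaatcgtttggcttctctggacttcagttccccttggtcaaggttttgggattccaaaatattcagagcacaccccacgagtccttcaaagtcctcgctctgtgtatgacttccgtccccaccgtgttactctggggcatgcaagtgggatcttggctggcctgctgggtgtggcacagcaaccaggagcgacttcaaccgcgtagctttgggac
Col23a1 (chr11:51289670-51289919, plus strand): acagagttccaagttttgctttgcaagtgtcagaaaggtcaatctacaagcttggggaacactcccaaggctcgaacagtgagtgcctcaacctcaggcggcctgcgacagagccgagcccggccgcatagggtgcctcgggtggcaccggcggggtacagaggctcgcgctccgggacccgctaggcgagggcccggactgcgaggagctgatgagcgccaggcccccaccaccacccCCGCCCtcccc
The Col3a1 window holds TATAAA 117 bases before the start and is 35.2% G or C. The Col23a1 window is 66% G or C and holds GGGCGG on its other strand 11 bases before the start, while the Col6a3 and Col15a1 windows hold none of the 3. A RefSeq entry was found for 33 of the 42 collagen genes. For Col6a2 and Col18a1, which have more than 1 entry, only the first was counted. Windows that overlap annotated exons, such as that of Col1a2, were kept in these counts. CCAAT was found in 12 of these 33 (36.4%) and in 33.9% of all 32851 windows, TATAAA in 5 (15.2%) against 12.4%, and GGGCGG in 21 (63.6%) against 32.7%. GGAATG, the letters read by TEAD factors, was found in 3 of 33 (9.09%) against 12.6%, and TGANTCA, read by AP-1, in 1 of 33 (3.03%) against 6.75%. The Col18a1 window that was not counted holds GGAATG 104 and 54 bases before its start, so the GGAATG share depends on this choice. The median G and C content was 59.6% in the collagen windows and 52.4% in all windows, and matches of short letters depend on it.

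Fibrillar genes were the class with most calls: 9 of 10 tested members were higher in KPAT and 7 of 10 in KAT, with median log2 fold changes of 1.81 and 1.55. Counts by class are read beside the 9.13% (KPAT) and 15.6% (KAT) of all tested genes that were higher. Type I and III collagen, the main fibres of scar and tumour stroma, led in level. Col1a1 (ENSMUSG00000001506, chr11:94936224-94953042, plus strand), the major type I chain, stood over tumours 1 to 5 at 1107, 1493, 294, 760.3 and 812 in KPT, at 2289, 2402, 1800, 3208 and 2567 in KAT and at 2349, 4790, 1591, 2382 and 3862 in KPAT. KPT tumour 3 was the lowest of all 15 and KPAT tumour 2 the highest, and no KAT or KPAT tumour reached down to the KPT range. Its log2 fold change was 1.82 ± 0.38 (SE), adjusted p = 0.00753 in KPAT and 1.62 ± 0.38 (SE), adjusted p = 0.00619 in KAT. Col1a2 (ENSMUSG00000029661, chr6:4504814-4541544, plus strand), its partner chain, stood at 860.3, 1044, 274, 635 and 765 in KPT, at 1645, 2284, 1830, 2557 and 1900 in KAT and at 2068, 3702, 1284, 2547 and 2988 in KPAT. As for Col1a1, KPT 3 was lowest, KPAT 2 highest, and KPT did not overlap the other groups. The change was 1.86 ± 0.33 (SE), adjusted p = 0.00374 in KPAT and 1.62 ± 0.33 (SE), adjusted p = 0.00293 in KAT.

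Col3a1 (ENSMUSG00000026043, chr1:45311538-45349706, plus strand), which makes the type III fibres mixed with type I in soft tissue, stood at 766, 989, 179.9, 598 and 1136 in KPT, at 1995, 2718, 1281, 2520 and 1639 in KAT and at 1604, 4178, 1604, 2139 and 2642 in KPAT. The highest KPT tumour, number 5, came close to KAT tumour 3, yet the groups did not overlap. The log2 fold change was 1.87 ± 0.43 (SE), adjusted p = 0.0107 in KPAT and 1.65 ± 0.43 (SE), adjusted p = 0.0107 in KAT. Per kilobase of transcript the type I and III genes had nearly equal levels, 505, 471 and 437 in KPAT against 151, 134 and 132 in KPT.

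Type V collagen sits inside type I fibrils and limits their width. Col5a2 (ENSMUSG00000026042, chr1:45374321-45503282, minus strand) stood at 183.5, 273, 85.1, 176 and 249 in KPT, at 402, 611, 396.5, 605 and 539 in KAT and at 525, 888, 469.7, 498 and 562 in KPAT. KPAT tumour 2 lay well above the other KPAT tumours, and both groups were clear of KPT. The log2 fold change was 1.67 ± 0.27 (SE), adjusted p = 0.00286 in KPAT and 1.48 ± 0.27 (SE), adjusted p = 0.00166 in KAT, the lowest adjusted p among collagen genes in KPAT. Col5a1, its partner, was at 277 ± 119.5 (SD, n = 5) in KPT, at 522 ± 178 in KAT and at 685 ± 311 in KPAT. The ranges overlapped, and the change of 1.30 ± 0.35 (SE), adjusted p = 0.0217 in KPAT lost its call without KPAT 2 or KPAT 5, where adjusted p reached 0.0602. In KAT it was 0.98 ± 0.35 (SE), adjusted p = 0.048, lost without any 1 of 9 libraries (KPT 3 to 5, KAT 1 to 5 and KPAT 4), where adjusted p reached 0.117. Col5a3, a less abundant type V chain, was at 21.9 ± 10.4 in KPT, at 91.4 ± 39.2 in KAT and at 75.4 ± 35.5 in KPAT, with 1.81 ± 0.43 (SE), adjusted p = 0.0126 in KPAT and 2.07 ± 0.43 (SE), adjusted p = 0.00311 in KAT.

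Type XI collagen is the cartilage counterpart of type V and is also made by activated fibroblasts. Col11a1 stood at 13.95, 15.4, 2.54, 10.6 and 2.54 in KPT, at 9.28, 73.85, 5.53, 13.75 and 12 in KAT and at 45.5, 72.3, 9.75, 43.5 and 78 in KPAT. KAT tumour 2 and KPAT tumours 1, 2, 4 and 5 were high, and the remaining KAT tumours and KPAT 3 lay within the KPT range. The KPAT change was 2.56 ± 0.74 (SE), adjusted p = 0.0297, and it lost its call without any 1 of KPT 3, KPT 5, KPAT 1, KPAT 2, KPAT 4 and KPAT 5 (adjusted p up to 0.0736). The KAT value of 1.07 was not called (adjusted p = 0.288). Col11a2 was at 4.99 ± 0.426 in KPT, at 8.02 ± 3.28 in KAT and at 9.98 ± 3.5 in KPAT, with a KPAT change of 0.92 ± 0.28 (SE), adjusted p = 0.0384, lost without any 1 of 9 libraries (KPT 1 to 5 and KPAT 1, 2, 3 and 5; adjusted p up to 0.0945). Col24a1, a minor fibrillar gene of developing bone and eye, was higher in both groups than its 0.561 ± 0.443 in KPT, with 2.18 ± 0.87 in KAT and 3.425 ± 2.14 in KPAT. Its change was 2.68 ± 0.62 (SE), adjusted p = 0.0111 in KPAT and 2.17 ± 0.62 (SE), adjusted p = 0.0174 in KAT. The KPT tumours held only 14, 11, 2, 3 and 26 reads of Col24a1. With quantile normalization limma lost the KAT call (adjusted p = 0.0542). Col27a1 was the 1 tested fibrillar gene called in neither, at 143 ± 70.3, 150.1 ± 25.4 and 224 ± 95.1 in KPT, KAT and KPAT.

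**Figure D2:**
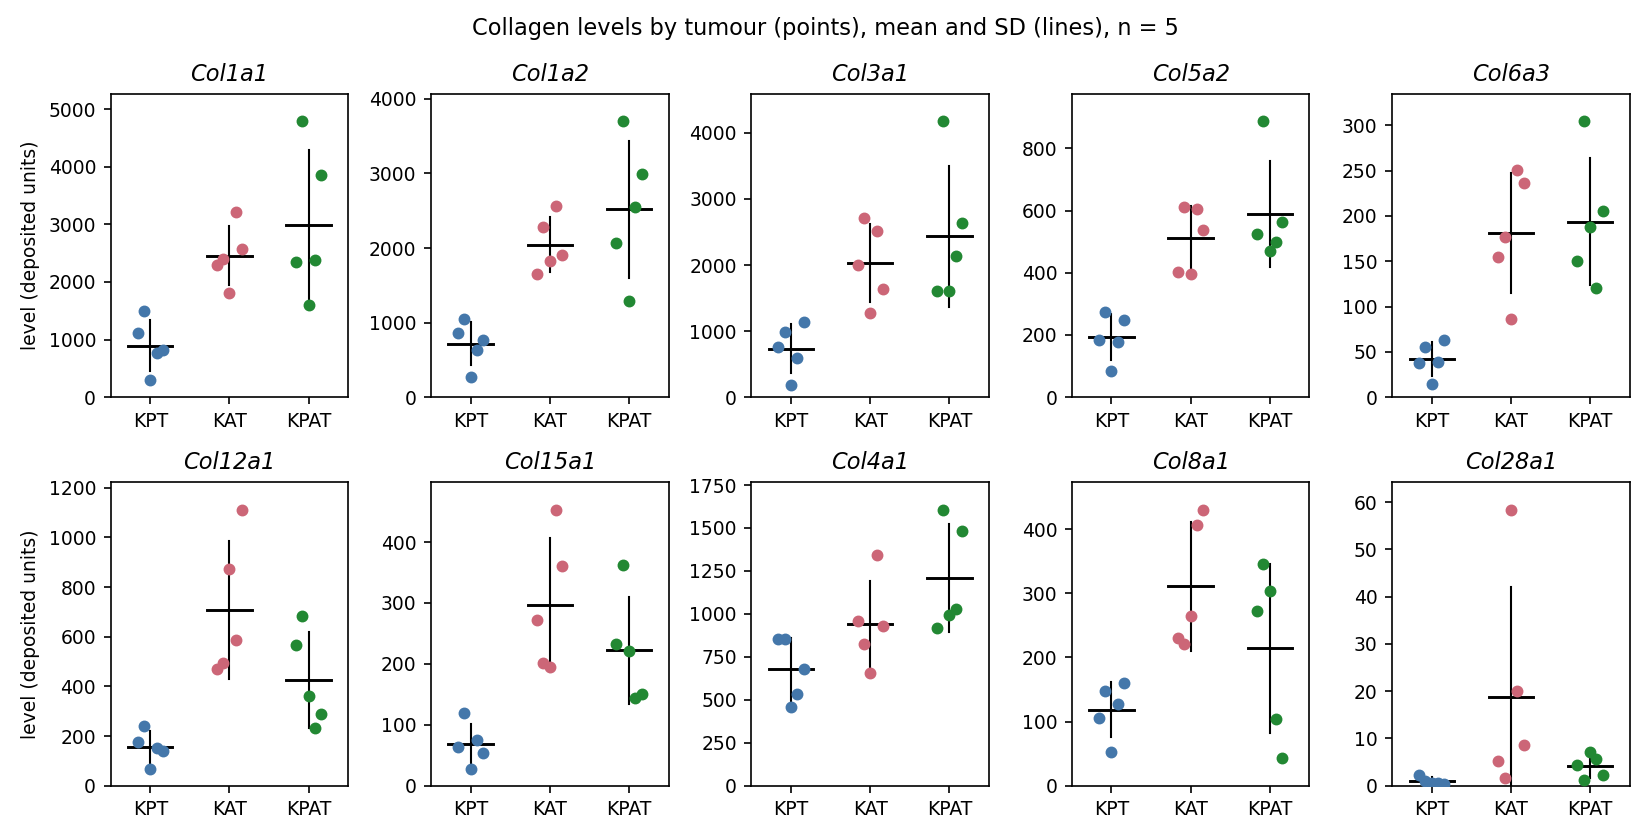
Deposited level of 10 collagen genes in each tumour (points) by group, with the mean (horizontal line) and SD (vertical line, cut at 0) of 5 tumours. The type I, III, V and VI genes shown separate KPT from both other groups, whereas Col4a1 separates only KPAT and Col8a1 only KAT from KPT.

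Type VI collagen, the filament collagen of the pericellular matrix, had its 3 classical chains called higher in both comparisons by limma in the main fit. None of its 3 later chains was called there, though other settings called Col6a5 or Col6a6. The difference between the 2 sets of chains was not tested. Col6a3 (ENSMUSG00000048126, chr1:90765923-90843971, minus strand), the long chain that ends in the endotrophin fragment, stood at 37.2, 55.8, 14.6, 38.7 and 62.7 in KPT, at 155, 177, 86.7, 251 and 237 in KAT and at 149.9, 305, 188, 121 and 205 in KPAT. No KAT or KPAT tumour overlapped KPT, and KPT 3 was again lowest. The log2 fold change of Col6a3 was 2.30 ± 0.38 (SE), adjusted p = 0.00289 in KPAT and 2.18 ± 0.38 (SE), adjusted p = 0.00113 in KAT. Col6a1 stood at 189, 231, 81.45, 138 and 161 in KPT, at 319, 442, 254.5, 326 and 330.4 in KAT and at 296, 548, 167, 505 and 938 in KPAT. KPAT tumour 3 fell inside the KPT range while KPAT 5 was the highest of all tumours, and KAT stayed clear of KPT. Its change was 1.47 ± 0.38 (SE), adjusted p = 0.0177 in KPAT and 1.12 ± 0.38 (SE), adjusted p = 0.0368 in KAT, and the KAT call was lost without any 1 of KPT 3, KPT 4, KPT 5, KAT 1, KAT 2, KAT 4 and KAT 5 (adjusted p up to 0.0906). Col6a2 stood at 112, 120.5, 36.1, 80.7 and 94.1 in KPT, at 197, 308, 151, 248.5 and 247 in KAT and at 213, 411, 102, 371 and 698.5 in KPAT. As for Col6a1, KPAT 3 overlapped KPT. The change was 1.86 ± 0.43 (SE), adjusted p = 0.0121 in KPAT and 1.45 ± 0.43 (SE), adjusted p = 0.0226 in KAT, where the call was lost without KPT 3 (adjusted p = 0.0558).

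The 3 later type VI chains were far lower, at mean levels per kilobase of 0.184 (Col6a4), 0.857 (Col6a5) and 0.242 (Col6a6) over all tumours against 80.1 for Col6a1. Col6a5 ranged from 0.576 to 3.79 in KPT, from 0.494 to 29.3 in KAT and from 0.436 to 27.2 in KPAT. None of the 3 was called by limma in the main fit (DESeq2 called Col6a5 in both comparisons and Col6a6 in KAT, and edgeR Col6a6 in KAT). Limma called Col6a5 in KPAT without KPAT 3, and both Col6a5 and Col6a6 in KAT with array weights. Col6a6 was also called by limma in KAT without KAT 2, alone or together with KPT 3 and KPAT 5. Main-fit values of the 3 later chains lay between 0.24 and 2.06 in KPAT and between 1.08 and 1.88 in KAT. Their SEs were 0.92 to 1.29, and some values exceeded the Col6a1 values of 1.47 and 1.12.

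Basement membrane type IV genes had fewer calls than the fibrillar genes, with values on both sides of 0. In KPAT 2 of 6 were higher and in KAT 0 of 6 were called by limma, where 2 had an unadjusted p under 0.05 (edgeR and DESeq2 each called Col4a4 lower in KAT). Of all tested genes 9.13% were higher in KPAT, and 28.9% were called in KAT. Type IV trimers are built from Col4a1 with Col4a2 in nearly all basement membranes, and from Col4a3, Col4a4 and Col4a5, or Col4a5 and Col4a6, in specialised ones. Col4a1 (ENSMUSG00000031502, chr8:11198423-11312826, minus strand) stood at 856, 856, 460.2, 531 and 679.8 in KPT, at 959, 827.5, 655, 1340 and 928 in KAT and at 920.3, 1607, 996, 1027 and 1482 in KPAT. KPAT tumours all exceeded the highest KPT tumour by a small margin, and KAT overlapped KPT. The change was 0.84 ± 0.23 (SE), adjusted p = 0.0224 in KPAT, lost without any 1 of KPT 3, KPAT 2 and KPAT 5 (adjusted p up to 0.0616), and 0.48 ± 0.23 (SE), adjusted p = 0.124 in KAT. Col4a2 (ENSMUSG00000031503, chr8:11312805-11449287, plus strand) stood at 624, 632, 378, 389.8 and 391 in KPT, at 637, 571, 556, 917 and 631 in KAT and at 659.7, 1084, 685, 731 and 902 in KPAT. The same holds for its groups, with KPAT clear of KPT and KAT not. Its change was 0.77 ± 0.20 (SE), adjusted p = 0.0185 in KPAT, lost without KPAT 2 (adjusted p = 0.051), and 0.47 ± 0.20 (SE), adjusted p = 0.0853 in KAT. Both genes were called in KAT with quantile normalization and with array weights, and Col4a2 also without KPT 2. With array weights both genes lost their KPAT calls.

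Col4a5, on the X chromosome, stood at 23.7, 38.4, 36.8, 24.3 and 80.9 in KPT, at 32.15, 36.2, 58.2, 63.85 and 66.7 in KAT and at 46.05, 42.35, 29.15, 20.8 and 22.4 in KPAT. KPT tumour 5 was the highest of all, and the groups overlapped throughout. Neither change was called (-0.26 ± 0.34 (SE), adjusted p = 0.628 in KPAT and 0.43 ± 0.34 (SE), adjusted p = 0.36 in KAT), and without KPT 5 the KPAT value was 0.02. Col4a6 was at 6.1 ± 3.9, 12.1 ± 6.765 and 5.49 ± 3.73 in KPT, KAT and KPAT. The pair Col4a3 and Col4a4 had values under 0: Col4a4 was -1.36 ± 0.50 (SE), adjusted p = 0.0759 in KPAT and -1.23 ± 0.50 (SE), adjusted p = 0.0786 in KAT. KPT tumour 3 was far above all others, with 12.7 for Col4a4 and 8.69 for Col4a3, where the remaining KPT tumours lay at 1.63 to 4.41 and 0.528 to 1.51.

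The short-chain network collagens VIII and X were called higher in KAT (3 of 3) by limma. In KPAT 0 of 3 were called in the main fit, with 1 at an unadjusted p under 0.05. There edgeR and DESeq2 each called Col10a1. Limma also called Col10a1 in KPAT on the 2 groups alone (2.38, adjusted p = 0.046) and without KPAT 5. Type VIII is made by vessel walls and activated mesenchymal cells, and type X by hypertrophic cartilage. Col8a1 stood at 106, 148, 52, 127 and 160.3 in KPT, at 230.2, 222, 265, 407 and 430.5 in KAT and at 273, 345, 304, 104.5 and 43.8 in KPAT. All KAT tumours exceeded KPT, whereas KPAT 1, 2 and 3 lay above the KPT range, KPAT 4 within it and KPAT 5 under it. The KAT change was 1.43 ± 0.49 (SE), adjusted p = 0.0406, lost without any 1 of KPT 1, KPT 3, KPT 4, KAT 3, KAT 4 and KAT 5 (adjusted p up to 0.0992), and the KPAT value was 0.60 ± 0.49 (SE), adjusted p = 0.428.

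Col10a1 stood at 4.765, 6.52, 8.26, 6.08 and 13 in KPT, at 33.9, 15.5, 11.85, 267 and 186 in KAT and at 83.6, 78.2, 111, 12.3 and 8.94 in KPAT. KAT 4 and KAT 5 were the highest tumours, and the lowest KAT and KPAT tumours reached into the KPT range. The KAT change was 2.77 ± 0.89 (SE), adjusted p = 0.0306, lost without KPT 1, KPT 2, KPT 4, KAT 4 or KAT 5 (adjusted p up to 0.0801, lowest value 2.17 without KAT 4), and the KPAT value was 2.38 ± 0.89 (SE), adjusted p = 0.0788. Exons of Col10a1 share 18 bases with Nt5dc1 on the opposite strand. Col8a2 stood at 5.97, 9.34, 0.702, 5.99 and 7.13 in KPT, at 12.1, 12.3, 23.1, 40.4 and 44.5 in KAT and at 17.8, 29.05, 5.29, 4.63 and 4.68 in KPAT. KAT lay wholly above KPT, while KPAT was split, with 2 tumours high and 3 within the KPT range. The change was 2.35 ± 0.70 (SE), adjusted p = 0.0215 in KAT, lost without KAT 4 or KAT 5 (adjusted p up to 0.0541), and 1.01 ± 0.70 (SE), adjusted p = 0.336 in KPAT. The difference of KPAT from KAT itself was not called for any of the 3: Col8a1 -0.84 ± 0.49 (SE), adjusted p = 0.551, Col8a2 -1.33 ± 0.70 (SE), adjusted p = 0.505 and Col10a1 -0.39 ± 0.89 (SE), adjusted p = 0.907.

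Among FACIT collagens 1 of 6 tested genes was called in each comparison, near or under the 16.5% (KPAT) and 28.9% (KAT) of all tested genes. It was Col12a1 (ENSMUSG00000032332, chr9:79598991-79718831, minus strand), a fibril-surface collagen of tissues under tension. Col12a1 stood at 177, 240, 65.2, 153 and 141 in KPT, at 472, 494, 873, 585 and 1112 in KAT and at 568, 683, 359, 231 and 288 in KPAT. KAT tumours were all above KPT, and in KPAT only tumour 4 lay just under the highest KPT tumour. The change was 2.22 ± 0.36 (SE), adjusted p = 0.000803 in KAT and 1.45 ± 0.36 (SE), adjusted p = 0.0159 in KPAT. Col14a1, a fibril-surface collagen of mature fibroblasts, stood at 49.9, 20.7, 22.6, 13.7 and 24 in KPT, at 22.3, 26.7, 52.4, 129.6 and 54.8 in KAT and at 38.9, 50.6, 31, 25.8 and 48.3 in KPAT. KPT 1 and KAT 4 stood apart upward, and the values of 0.97 ± 0.42 (SE), adjusted p = 0.0961 in KAT and 0.66 ± 0.42 (SE), adjusted p = 0.296 in KPAT were not called by limma, although DESeq2 called the gene higher in KAT (1.11, adjusted p = 0.0337), as did limma with array weights and without KPT 1 or KAT 1. Col16a1 stood at 42.1, 147, 189.7, 71.85 and 45.4 in KPT, at 79.4, 82.8, 124, 109.9 and 120.5 in KAT and at 77.3, 132, 49.15, 53.3 and 145.5 in KPAT. Its groups overlapped throughout, with 0.30 ± 0.41 (SE), adjusted p = 0.613 in KAT and 0.01 ± 0.41 (SE), adjusted p = 0.995 in KPAT, and the KPAT value changed sign under several settings. Col9a2, Col9a3 and Col20a1 were at or under 12.98 in every tumour and not called, although Col9a2 reached 2.40 ± 0.83 (SE), adjusted p = 0.0616 in KPAT through KPAT 4 and KPAT 5 (6.98 and 12.96) and was called there by edgeR and DESeq2.

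Type VII collagen, the anchoring fibril protein made by epithelium and fibroblasts, was higher in KPAT. Col7a1 (ENSMUSG00000025650, chr9:108953586-108984875, plus strand) stood at 29.65, 54.1, 103, 59.4 and 38.2 in KPT, at 78.4, 158, 50.8, 109 and 101 in KAT and at 80, 79.5, 145, 265 and 459 in KPAT. KPAT 4 and KPAT 5 were the highest tumours and KPAT 1 and KPAT 2 lay within the KPT range, whose top was KPT 3. The KPAT change was 1.64 ± 0.47 (SE), adjusted p = 0.028, lost without any 1 of KPT 1, KPT 2, KPT 5, KPAT 4 and KPAT 5 (adjusted p up to 0.0717), and the KAT value was 0.84 ± 0.47 (SE), adjusted p = 0.19.

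Among the multiplexins, limma in the main fit called Col15a1 in both comparisons and Col18a1 in neither. The difference between these genes was not tested. Col15a1 (ENSMUSG00000028339, chr4:47208161-47313167, plus strand), of the basement membrane zone of muscle and capillaries, stood at 63.7, 119, 27.7, 75.7 and 54.4 in KPT, at 272, 201, 195, 453 and 360.4 in KAT and at 233, 363, 220.5, 144 and 150.5 in KPAT. No KAT or KPAT tumour overlapped KPT. The change was 2.19 ± 0.36 (SE), adjusted p = 0.000772 in KAT, the lowest adjusted p of all collagen genes there, and 1.77 ± 0.36 (SE), adjusted p = 0.00649 in KPAT. Col18a1 (ENSMUSG00000001435, chr10:77052178-77166548, minus strand), the source of the endostatin fragment, was the more abundant gene and stood at 529.5, 635.5, 449, 422 and 413 in KPT, at 544, 807, 382, 669.6 and 439.5 in KAT and at 570.4, 548, 880.3, 669 and 753 in KPAT. The groups overlapped, and neither 0.18 ± 0.20 (SE), adjusted p = 0.524 in KAT nor 0.48 ± 0.20 (SE), adjusted p = 0.116 in KPAT was called, although quantile normalization gave a call in KPAT (0.60, adjusted p = 0.0361).

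Transmembrane collagens had low levels, and 2 of 4 were higher in KPAT and 1 of 4 in KAT, beside 9.13% and 15.6% of all tested genes. Col23a1 (ENSMUSG00000063564, chr11:51289920-51583918, plus strand) stood at 4.565, 3.26, 1.89, 2.245 and 1.11 in KPT, at 2.765, 15.3, 13.1, 7.05 and 11.6 in KAT and at 7.47, 10.2, 4.74, 17 and 15.6 in KPAT. KPAT lay above KPT in every tumour, whereas KAT 1 fell within the KPT range. The change was 2.06 ± 0.49 (SE), adjusted p = 0.0133 in KPAT and 1.84 ± 0.49 (SE), adjusted p = 0.0129 in KAT. Without KPT 3, KAT 2 and KPAT 5 together the adjusted p was 0.0585 and 0.0619, and with quantile normalization the KAT call was lost (adjusted p = 0.0548). Col13a1, found at cell adhesion sites and the nerve-muscle junction, stood at 6.97, 6.97, 8.8, 4.93 and 1.69 in KPT, at 6.37, 8.24, 9.61, 12.6 and 7.525 in KAT and at 8.635, 14.7, 6.27, 10.9 and 12.1 in KPAT. It was not called (0.97 ± 0.38 (SE), adjusted p = 0.0924 in KPAT and 0.74 ± 0.38 (SE), adjusted p = 0.153 in KAT).

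Col25a1, a neuronal membrane collagen, stood at 0.4515, 0.703, 0.216, 0.176 and 1.96 in KPT, at 0.937, 2.745, 0.574, 0.435 and 0.604 in KAT and at 1.82, 2.85, 0.872, 3.62 and 8.94 in KPAT. KPAT 5 was the highest, and KPT 5 and KAT 2 stood above the rest of their groups. The KPAT change of 2.36 ± 0.69 (SE), adjusted p = 0.0315 was lost without any 1 of KPT 1, KPT 3, KPT 4, KPAT 2, KPAT 4 and KPAT 5 (adjusted p up to 0.0764), and the KAT value was 0.71 ± 0.69 (SE), adjusted p = 0.46. Col17a1, the hemidesmosome collagen of stratified epithelium, stayed at 0.0608 to 1.74 in all 15 tumours. Col28a1, a collagen of peripheral nerve glia, stood at 2.26, 1.09, 0.594, 0.528 and 0.401 in KPT, at 5.25, 1.7, 58.4, 20.1 and 8.51 in KAT and at 4.44, 1.22, 7.19, 5.64 and 2.25 in KPAT. KAT 3 was far above every other tumour, and KAT 2 lay within the KPT range. Its KAT change was 3.54 ± 0.79 (SE), adjusted p = 0.00478, and 2.90 without KAT 3 or 4.16 without KAT 2, while the KPAT value was 2.05 ± 0.79 (SE), adjusted p = 0.0862. In KPAT it was called by DESeq2 (2.07, adjusted p = 0.0292) and by limma on the 2 groups alone (adjusted p = 0.0431) or without KAT 2 or KAT 3. Of 4 tested Schwann cell markers 1 was called higher in KAT and 0 in KPAT, and their summed level with 2 untested ones ran from 7.57 to 13.1 in KPT, from 8.07 to 26.2 in KAT and from 13.6 to 17.5 in KPAT; their part in the Col28a1 values was not tested. Col26a1 stood at 0.301, 1.09, 0.216, 0.7925 and 0.4455 in KPT, at 0.141, 0.494, 0.6265, 0.174 and 0.11 in KAT and at 1.72, 2.48, 0.3815, 0.47 and 0.304 in KPAT. All values were near the detection limit and not called (-0.82 ± 0.65 (SE), adjusted p = 0.359 in KAT and 0.60 ± 0.65 (SE), adjusted p = 0.559 in KPAT).

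**Figure D3:**
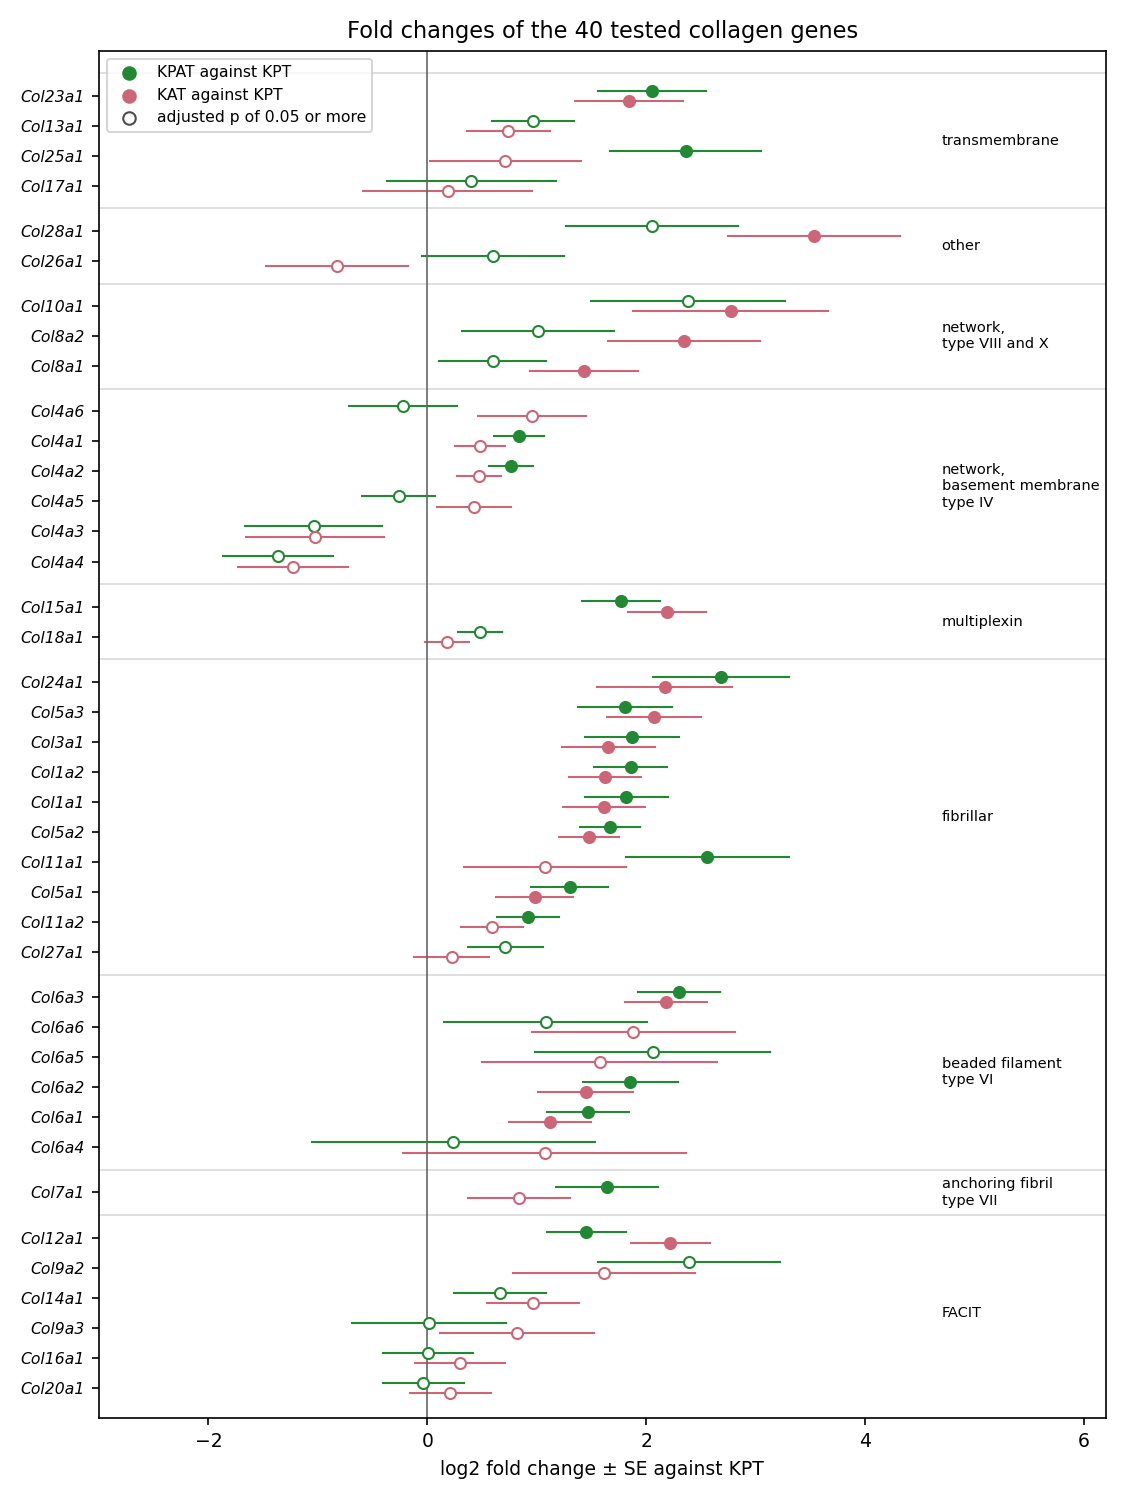
Log2 fold change with its SE (lines) of the 40 tested collagen genes in KPAT against KPT (green) and KAT against KPT (red), by class; filled points have an adjusted p under 0.05 (limma) and open points do not. The fibrillar genes lie to the right of 0 in both, from 0.22 to 2.68, while Col4a3 and Col4a4 lie to the left.

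KPAT and KAT tumours, which differ by the added loss of Trp53, were compared directly. By limma 0 of 40 collagen genes were called (0.0481% of all tested genes, 0.036% higher and 0.012% lower), and edgeR and DESeq2 also called 0. At an unadjusted p under 0.05 there were 3, where 10.8% of all tested genes passed: Col25a1 (1.65 ± 0.69 (SE), adjusted p = 0.41), Col26a1 (1.42 ± 0.65 (SE), adjusted p = 0.45) and Col4a6 (-1.18 ± 0.50 (SE), adjusted p = 0.41). The median log2 fold change was 0.21, the values ran from -1.49 to 1.65, and no collagen gene separated the groups, which 1.42% of all genes did upward and 1.3% downward. For the main fibre genes the differences were 0.20 ± 0.38 (SE), adjusted p = 0.88 for Col1a1 and 0.22 ± 0.43 (SE), adjusted p = 0.891 for Col3a1. These SEs leave room for differences of some size in either direction. The FACIT and VIII and X values leaned to KAT (medians -0.30 and -0.835) and the fibrillar ones to KPAT (0.28), with 0 called in each class.

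Chains of 1 trimer, or of 1 fibril or membrane, were compared as ratios of levels per kilobase within each tumour, which need no scaling between libraries. Col1a1 to Col1a2, the chains of type I, was 1.09 ± 0.139 (SD, n = 5) in KPT, 1.09 ± 0.163 in KAT and 1.06 ± 0.136 in KPAT. Col4a1 to Col4a2 was 1.37 ± 0.191, 1.38 ± 0.129 and 1.44 ± 0.0976. Both pairs kept their ratio within the spread of the tumours.

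Col6a1 to Col6a2 had the smallest p among the ratios, with a modest difference in mean log2 ratio of -0.39 in KPAT and -0.33 in KAT against KPT. It was 1.63, 1.84, 2.17, 1.645 and 1.65 in KPT tumours 1 to 5, 1.56, 1.38, 1.63, 1.26 and 1.29 in KAT, and 1.34, 1.28, 1.58, 1.31 and 1.29 in KPAT. Every KPAT tumour lay under every KPT tumour, and KAT tumour 3 touched the lowest KPT tumour. The exact two-sided permutation test gave p = 0.00794 for each against KPT, the smallest p that 5 against 5 allows, and 0.0952 after adjustment over the 24 ratio tests. Col6a3 to Col6a2 was 0.183 ± 0.0487 in KPT and 0.305 ± 0.0802 in KAT (exact permutation p = 0.0238, adjusted 0.19), and KPAT spread from 0.115 to 0.723. Col4a5 to Col4a1 was 0.0579 ± 0.0229 in KAT and 0.0286 ± 0.0135 in KPAT (exact permutation p = 0.0317, adjusted 0.19). None of the 24 tests passed after adjustment, and 4 had an unadjusted p under 0.05.

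**Figure D4:**
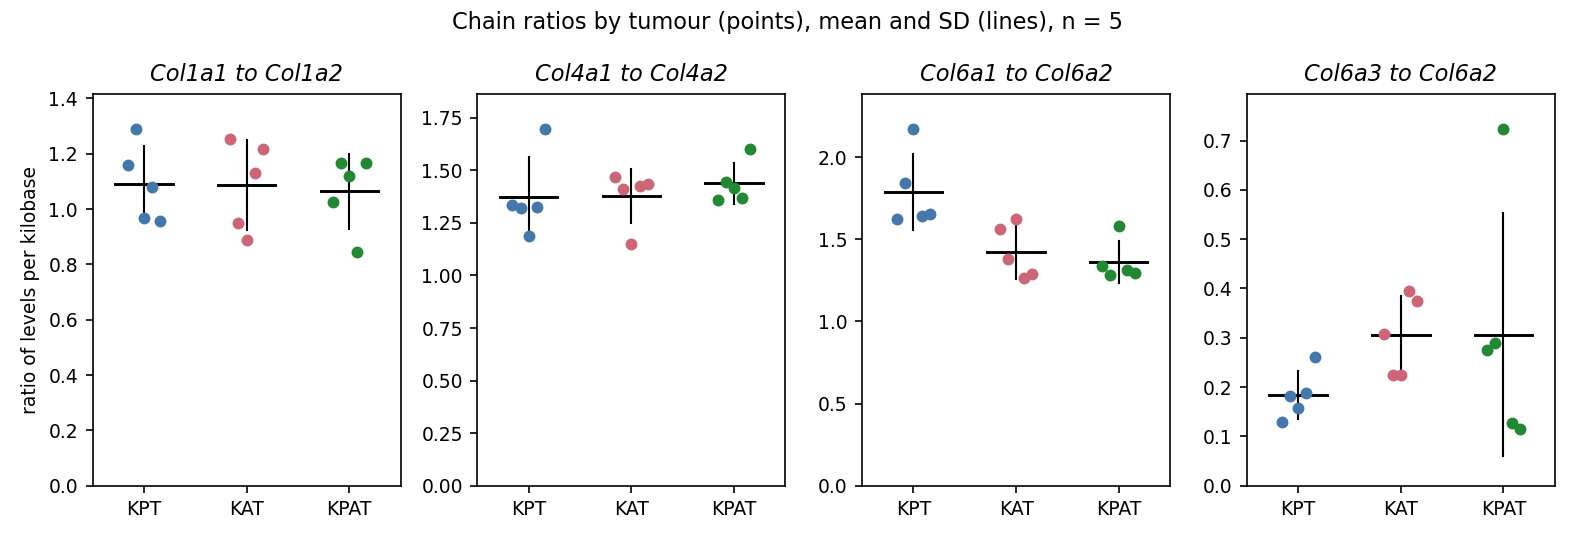
Ratio of levels per kilobase of 2 chains in each tumour (points) by group, with the mean (horizontal line) and SD (vertical line) of 5 tumours. Col1a1 to Col1a2 stays near 1.09 in KPT and KAT and 1.06 in KPAT, and Col6a1 to Col6a2 is lower in KAT and KPAT than in KPT.

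Between groups, fibroblast markers other than collagens moved in the same direction as the collagen genes. Of 12 such markers 5 were higher in KPAT and 12 in KAT against KPT, with medians of 1.365 and 1.82. Their summed level was 715, 850.4, 216, 502 and 605 in KPT tumours 1 to 5, 1105, 1473, 2432, 2408 and 2021 in KAT and 1414, 2432, 886, 1589 and 1733 in KPAT. Within KAT the order differed, as tumour 3 had the highest fibroblast level but the lowest share of reads in collagen genes, 1.01%. No KAT or KPAT tumour overlapped KPT, and KPT 3 was lowest of the KPT tumours, as for 22 of the 40 tested collagen genes. Fibroblast level and genotype therefore cannot be told apart by these groups. With the mean log2 level of the 12 markers as a covariate, limma called 0 of 40 collagen genes in KPAT against KPT, 0 in KAT against KPT and 0 in KPAT against KAT, where 3.78%, 6.55% and 0.0781% of all tested genes were called. At an unadjusted p under 0.05 these numbers were 6, 6 and 7, beside 23.5%, 25.5% and 10.6% of all genes. The medians were 0.53, 0.17 and 0.30 with the covariate and 1.19, 1.08 and 0.21 without it, lower for both comparisons with KPT and higher for KPAT against KAT.

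The shift with the covariate varied in size and direction between collagen genes, and differences between these shifts were not tested. Col1a1 went to 0.57 ± 0.27 (SE), adjusted p = 0.224 in KPAT and 0.06 ± 0.31 (SE), adjusted p = 0.936 in KAT. Col7a1 instead went up, to 2.25 ± 0.64 (SE), adjusted p = 0.0633 in KPAT and 1.59 ± 0.72 (SE), adjusted p = 0.184 in KAT. Col10a1 hardly moved in KAT (2.83 ± 1.45 (SE), adjusted p = 0.239). Col6a3, which lost its calls like every other called collagen gene, went to 1.47 ± 0.45 (SE), adjusted p = 0.0748 in KPAT and 1.15 ± 0.51 (SE), adjusted p = 0.172 in KAT. Values under 0 in KAT with the covariate included Col6a1 (-0.07), Col6a2 (-0.03), Col4a1 (-0.22) and Col5a1 (-0.19).

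**Figure D5:**
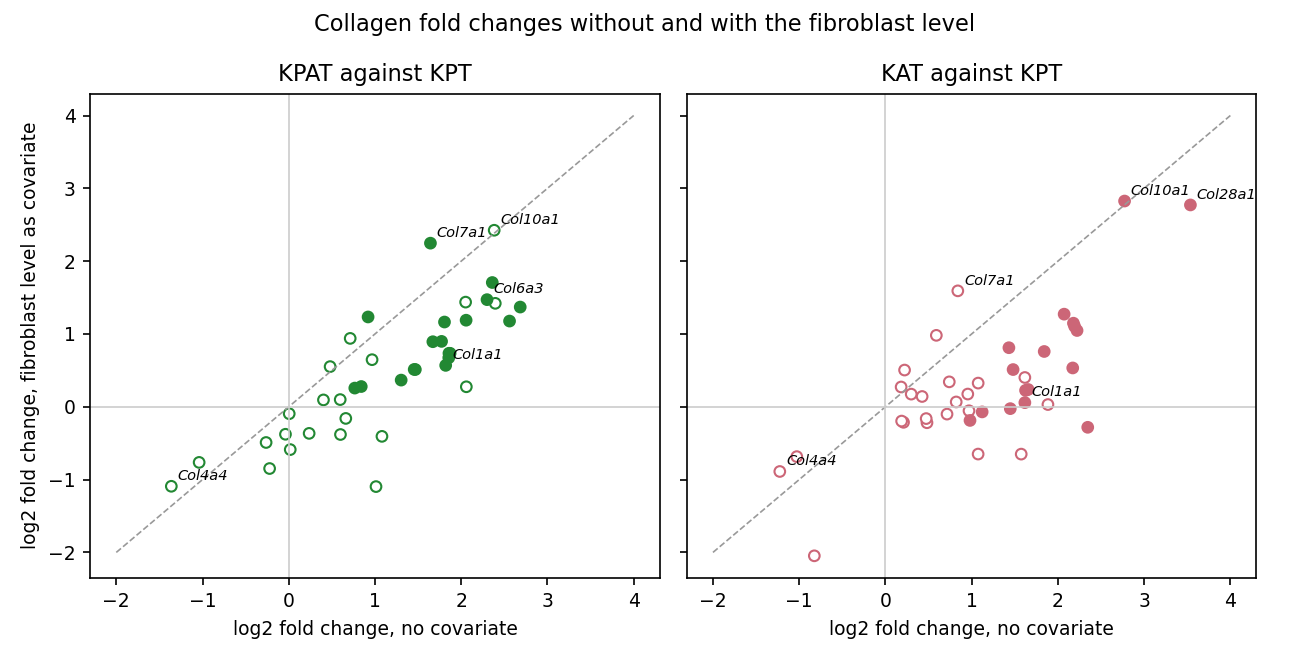
Log2 fold changes of the 40 tested collagen genes without (x axis) and with (y axis) the mean log2 level of 12 non-collagen fibroblast markers as covariate, for KPAT against KPT (left) and KAT against KPT (right). Filled points have an adjusted p under 0.05 without the covariate and the dashed line marks equal values; most points lie under the line, with Col7a1 above it.

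Markers of other cell types are read beside the 9.13% (KPAT) and 15.6% (KAT) of all tested genes that were higher and the 7.4% and 13.3% that were lower against KPT, and several of these short lists lay near those shares. Of 8 pericyte and smooth muscle markers 1 was higher in KPAT and 4 in KAT, and of 8 endothelial markers 2 and 4. The summed endothelial level ran from 143 to 326 in KPT, from 221 to 690 in KAT and from 226 to 444 in KPAT, and that of pericytes from 86.4 to 346, 172 to 813 and 171 to 354. None of 8 acinar markers was called. Of 7 tested leukocyte markers 2 and 3 were higher, and of 8 epithelial markers 2 and 4 were lower. Of 5 mesothelial markers 0 and 1 were higher (summed level from 541 to 2690 in KPT, from 384 to 2234 in KAT and from 530 to 1708 in KPAT). That sum is carried by Msln (means of 1740, 998 and 1221 in KPT, KAT and KPAT), which was not called. The marker higher in KAT was Wt1 (2.02 ± 0.59 (SE), adjusted p = 0.0202). Upk3b, Lrrn4 and Upk1b had KAT values of 1.98, 2.56 and 1.48 and were not called. Of 3 tested skeletal muscle markers 0 and 1 were lower. Chondrocyte markers without collagens (4 genes) had a lower summed level in KAT (2.53 to 15.2) and KPAT (18.2 to 42.2) than in KPT (46.6 to 91.9). That sum is carried by Acan, which was lower in both (-3.10 ± 0.97 (SE), adjusted p = 0.0411 in KPAT and -6.01 ± 0.97 (SE), adjusted p = 0.000771 in KAT), whereas Comp was higher in KPAT (1.76 ± 0.56 (SE), adjusted p = 0.0446) and Matn3 was not called. No marker was at 0 in every tumour of a group apart from 1 skeletal muscle marker in KPAT. The part of these cell types in the collagen values was not tested.

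Genes that process, export, link and bind collagen were followed in lists chosen by function, whose counts stand beside 9.13% of all tested genes higher and 7.4% lower in KPAT, and 15.6% and 13.3% in KAT. The counts of lower genes, 1 or 2 a list at most, lie near these shares. Of 18 genes of procollagen folding and hydroxylation 6 were higher and 1 lower in KPAT, and 5 higher and 2 lower in KAT. P3h1, a prolyl 3-hydroxylase, changed by 1.06 ± 0.19 (SE), adjusted p = 0.00407 in KPAT. Fkbp14, a procollagen-folding isomerase, changed by 1.16 ± 0.23 (SE), adjusted p = 0.00568 there. P3h3, another prolyl 3-hydroxylase family member, changed by 1.69 ± 0.31 (SE), adjusted p = 0.0017 in KAT. P4hb, a subunit of prolyl 4-hydroxylase, was lower in KAT, with -0.64 ± 0.12 (SE), adjusted p = 0.00172, from 1228 ± 182 (SD, n = 5) in KPT to 780.4 ± 45.2. The hydroxylase list thus held genes of both directions, and its summed level overlapped between groups (from 1838 to 2823 in KPT, from 2066 to 2345 in KAT and from 2285 to 3281 in KPAT). P4hb is the largest part of that sum. The median log2 fold change of the 18 genes was 0.747 in KPAT and 0.545 in KAT.

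Of 6 genes of procollagen export 0 were higher in either, and 1 was lower in KAT, Mia2 (-0.46 ± 0.13 (SE), adjusted p = 0.016), a transport factor of endoplasmic reticulum exit sites. Of 7 propeptide-processing genes 2 were higher in KPAT and 4 in KAT. Adamts2, the procollagen N-propeptidase, led with 2.27 ± 0.35 (SE), adjusted p = 0.00235 in KPAT and 2.00 ± 0.35 (SE), adjusted p = 0.00128 in KAT. Bmp1, the C-propeptidase, changed by 0.81 ± 0.19 (SE), adjusted p = 0.0123 and 1.01 ± 0.19 (SE), adjusted p = 0.00178. Of 5 lysyl oxidases, which cross-link collagen, 2 were higher in each: Loxl3 by 1.41 ± 0.27 (SE), adjusted p = 0.0053 in KPAT and 1.80 ± 0.27 (SE), adjusted p = 0.000507 in KAT, and Loxl1 by 1.55 ± 0.45 (SE), adjusted p = 0.0289 and 2.18 ± 0.45 (SE), adjusted p = 0.00301.

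Of 8 fibril-associated genes 4 were higher in KPAT and 7 in KAT. Dcn, Lum and Dpt of this list are also among the fibroblast markers, so the counts of these lists are not separate. Lum, a proteoglycan that spaces fibrils, changed by 2.01 ± 0.39 (SE), adjusted p = 0.00558 in KPAT. Sparc, a collagen-binding matricellular protein, changed by 1.15 ± 0.27 (SE), adjusted p = 0.012 in KPAT and 1.18 ± 0.27 (SE), adjusted p = 0.00549 in KAT. Bgn, a small proteoglycan of fibrils, changed by 1.83 ± 0.40 (SE), adjusted p = 0.00424 in KAT. Of 9 collagen receptor genes 3 were higher in KPAT and 5 in KAT. Lair1, an inhibitory collagen receptor of leukocytes, changed by 1.36 ± 0.30 (SE), adjusted p = 0.00962 in KPAT and 2.05 ± 0.30 (SE), adjusted p = 0.000467 in KAT. Ddr2, a receptor kinase for fibrillar collagen on mesenchymal cells, changed by 1.56 ± 0.36 (SE), adjusted p = 0.0112 and 2.14 ± 0.36 (SE), adjusted p = 0.000976. In KPAT against KAT 0 genes of these 6 lists were called.

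Several collagen genes lie next to each other in the genome. Col4a1 and Col4a2 lie head to head on chromosome 8, with annotations that overlap by 22 bases, and had close values in KPAT (0.84 and 0.77) and in KAT (0.48 and 0.47). Col4a4 and Col4a3 start 71 bases apart on chromosome 1 (-1.36 and -1.04 in KPAT). Col4a6 and Col4a5 start 1308 bases apart on the X chromosome (-0.22 and -0.26 in KPAT, 0.96 and 0.43 in KAT). Col3a1 and Col5a2 lie tail to tail with 24614 bases between them on chromosome 1. Col6a2 and Col6a1 lie on 1 strand of chromosome 10 with 85161 bases between them, and Col18a1, 326009 bases beyond Col6a1, was not called with them. Exons of 13 of the 42 collagen genes share bases with another gene, 10 of them on the opposite strand, and how the authors' counting treated strand is not given in the sources used here.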

How the data were processed

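Total RNA was extracted with an RNeasy midi kit, and TruSeq RNA libraries were run on an Illumina HiSeq4000 instrument, per the labels' protocols. The submitters' processing notes name HISAT2 2.0.4 and the builds mm10 and GRCm38; it is not given in the sources used here how reads were counted, by strand or not, and scaled. The authors' deposited table holds a signal value per Ensembl gene and library, which, judged from the values, is whole reads divided by 1 factor per library: 100% of values came out within 0.01 of a whole number. Each value was scaled by 19.478 (reads per unit, geometric mean over libraries), and log2(value + 1) was fitted for the 16648 genes with a mean of at least 10 (limma 3.58.1, R 4.3.3, group means of all 15 libraries, eBayes with trend, two-sided, Benjamini-Hochberg at 0.05). Depth was 14696138 to 26248484 reads, so counting error weighs on genes near the minimum. No 2 libraries of a group agreed within sampling noise (chi-square per degree of freedom 16.3 to 142). Symbols, transcript lengths (the transcript with the longest coding sequence) and positions came from GENCODE vM21 on GRCm38; 20585 of 20636 IDs matched a symbol. Chain ratios used exact permutation tests over all 252 assignments of 5 against 5. Members with every tumour's value were the up to 3 of highest level per kilobase in each class and the up to 4 of smallest adjusted p in each comparison and direction; Col11a1 was added after its values were seen. From each list of processing genes up to 2 called members of smallest adjusted p per comparison were named. Alternatives covered pseudocount, minimum level, scaling, covariates, weights, left-out libraries, edgeR 4.0.16 and DESeq2 1.42.0 on the recovered reads. The model was tested on simulated data. The members, classes and gene lists were chosen with earlier results of these data known. A further allele that all groups share is not reported here.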

Additional observations from a re-analysis of the deposited data

Results flagged for a closer look

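Of 90 sets of 5 tumours examined, 7 held 1 tumour far from the other 4, each time a high one. The sets covered 29 of the collagen genes, on levels that were not log-transformed. The rate of about 1 in 20 by chance holds for normally distributed values, so the 7 are not set against it. Other collagen genes were not examined, among them Col4a3 and Col4a4, where KPT tumour 3 lay far above the rest. In KPT, Col14a1 was at 49.9 in tumour 1 against 13.7 to 24.0 in the others, and Col4a5 was at 80.9 in tumour 5 against 23.7 to 38.4. In KAT, tumour 2 stood apart for 3 genes: Col5a1 at 833 against 412 to 504, Col11a1 at 73.85 against 5.53 to 13.75, and Col25a1 at 2.745 against 0.435 to 0.937. KAT tumour 4 held Col4a2 at 917 against 556 to 637. In KPAT, tumour 2 held Col5a2 at 888 against 469.7 to 562. KAT tumour 2 is also the KAT library with most reads in ribosomal RNA-overlapping genes (0.143%), whose part in these values was not tested.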

How the results depend on the processing

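For KPAT against KPT, calls among the collagen genes numbered 19 and moved to 0 with the fibroblast level as covariate and to 9 without KPT 3, KAT 2 and KPAT 5; leaving out 1 library at a time gave 13 to 20. For KAT against KPT, 17 became 0 with the covariate, and single libraries left out gave 12 to 17. The covariate follows the groups, so it leaves less difference between them to test; the cause of the other change was not tested. KPAT against KAT stayed at 0 under every setting run, and so did the chain ratios. Counts under the other settings ranged within 1.5 times: edgeR gave 21 and 18, DESeq2 24 and 21, array weights 16 and 24. TMM scaling gave the deposited scaling again. With the replicate number as a block there were 18 and 15 calls (Col11a2, Col8a1 and Col10a1 lost); same-numbered tumours deviated together with correlations of only -0.209 to 0.246, and 3 of 15 correlated best with their own number, so the numbers were not taken as pairs.

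Signs changed for values near 0 and, with the covariate, also for larger and called ones. The genes listed here are not all that changed sign. Col6a4 in KPAT against KPT went from 0.24 to -1.22 with edgeR and -1.28 with DESeq2. Col6a5 in KAT against KPT went from 1.57 to -0.65 with the covariate. Col16a1 in KPAT against KPT was 0.01 and became -0.0067 with median-of-ratios scaling, -0.10 with the covariate, -0.14 with array weights, -0.12 with edgeR, -0.13 with DESeq2 and -0.24 without KPT 1 and KAT 1, and ran from -0.24 to 0.31 with single libraries left out. Col4a5 there ran from -0.42 to 0.0228. With the covariate, Col14a1 became -0.16, Col26a1 -0.38 and Col8a2 -1.10 in KPAT against KPT. In KAT against KPT, where Col5a1, Col6a1, Col6a2 and Col8a2 had been called higher, Col11a1 became -0.65, Col14a1 -0.055, Col25a1 -0.10, Col4a1 -0.22, Col4a2 -0.16, Col5a1 -0.19, Col6a1 -0.0705, Col6a2 -0.0256 and Col8a2 -0.28. The depth limits the genes near 1 deposited unit, such as Col26a1, Col25a1 and Col24a1.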

Other observations

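Tumours of 1 group were not high or low in all collagen genes together. KPT tumour 3 was the lowest KPT tumour for 22 of the 40 tested collagen genes and the highest for 7: Col16a1, Col27a1, Col7a1, Col13a1, Col4a3, Col4a4 and Col6a6, named after their values were seen. It held Col1a1 at 294 against 760.3 to 1493 in the other KPT tumours, and Col7a1 at 103 against 29.6 to 59.4. In KAT, tumour 4 was highest for 13 genes and tumour 3 lowest for 16, although tumour 3 had the highest summed fibroblast level, 2432.

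KPAT tumours 4 and 5 shared low values of Col8a1 (104.5 and 43.8 against 273 to 345), Col10a1 (12.3 and 8.94 against 78.2 to 111) and Col12a1 (231 and 288 against 359 to 683). They also shared high values of Col7a1 (265 and 459 against 79.5 to 145) and Col9a2 (6.98 and 12.96 against 0.327 to 2.56). Within each group the coefficient of variation over 5 tumours had a median of 49.9% in KPT, 38.7% in KAT and 51.8% in KPAT over the collagen genes. The steadiest were Col11a2 in KPT (8.53%), Col27a1 in KAT (16.9%) and Col20a1 in KPAT (19.2%).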
